A study of Felis catus with 23 samples.

Results

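MicroRNA-21-5p (miR-21-5p) was followed in the serum of 23 cats, 12 of them healthy and 11 ill with hypertrophic cardiomyopathy (HCM), in which the heart wall thickens. It is 1 of 2026 miRNA names on the array. It was taken as every non-control probe that carries its human name, hsa-miR-21-5p, which gave 2 of 4944 probes, with 15 spots each. The design was made for human miRNAs, so the name is the human one and cat sequences were not compared with it. Each array held the serum RNA of 1 cat, labelled with the dye Cy3. HCM cats are those the labels give as diseased and healthy cats are those given as healthy. All samples are serum from clotted blood kept frozen before extraction, and breed, age, sex, treatment and disease stage are not given in the labels used here. The question was which serum miRNAs differ between cats with HCM and healthy cats, as far as the series title states it.

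MicroRNAs are short RNAs that pair with messenger RNAs through a seed at their 5′ end and lower the output of those messengers. In mammals miR-21-5p is abundant in many cell types, among them fibroblasts, macrophages and other blood cells. In rodent hearts it is known for its increase in fibroblasts under pressure load, and SPRY1 and PDCD4 are among its described targets. Serum holds miRNAs in vesicles and protein complexes shed by many tissues and by blood cells, so a serum level has no single tissue of origin.

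The 23 arrays lay on 3 slides, with 3 HCM and 4 healthy arrays on slide 1 and 4 of each on slides 2 and 3. All HCM arrays were in row 1 of a slide and all healthy arrays in row 2, so row and group cannot be told apart. An array detected between 323 and 615 names, and the 75th percentile of its intensity over the 508 probes detected on all arrays, to which each array was scaled, lay between 90.5 and 699. Among the red cell miRNAs 5 of 9 were tested and among muscle miRNAs 1 of 7, where a name was tested if detected on at least 6 arrays. The log2 of the summed level of the tested red cell names spanned 11.03 to 13.69 in HCM and 10.78 to 14.11 in healthy serum.

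miR-21-5p was well above background on every array. All 15 spots of both probes were called well above background on each of the 23 arrays, and 0 spots were saturated. On the scanner's scale the first probe (A_25_P00010975) gave mean intensities from 13.5 to 773 and the second (A_25_P00010976) from 13.1 to 573, over a local background of 18 to 24 that is already subtracted in these values. Spots of a probe on 1 array varied little, with a median coefficient of variation of 3.67% for the first probe and 3.79% for the second. The highest coefficients, 14.6% and 15.7%, belonged to the dimmest array, HCM replicate 2.

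Both probes ordered the cats in nearly the same way. Over the 23 arrays their log2 values had a Pearson correlation of 0.989, a description of 2 probes read on the same arrays. The first probe read 0.16 ± 0.17 (SD, n = 23 arrays) above the second on the log2 scale, with a range from -0.03 to 0.65. The widest gaps were 0.65 on healthy replicate 16, 0.52 on HCM replicate 12 and 0.43 on HCM replicate 10. The opposite strand of the hairpin, miR-21-3p, was detected on 0 of 23 arrays and its highest intensity was 4.39. miR-590-5p, which shares the seed of miR-21-5p, was also detected on 0 of 23 arrays, with a highest intensity of 3.04. The values of miR-21-5p below are those of the first probe, the brighter on average, scaled to the 75th percentile and put on the log2 scale.

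On slide 1 miR-21-5p read 8.02, 4.51 and 6.57 in HCM replicates 1, 2 and 3. The healthy replicates 22, 23, 25 and 26 of that slide read 8.19, 7.34, 8.20 and 7.62. HCM replicates 2 and 3 lay below all healthy arrays there, while HCM replicate 1 lay among them. On slide 2 the HCM replicates 5, 6, 7 and 8 read 7.25, 7.59, 5.47 and 7.25. The healthy replicates 18, 19, 20 and 21 read 6.70, 7.25, 8.50 and 8.03, and the groups overlapped except for HCM replicate 7, which was lower than every other array of the slide. On slide 3 the HCM replicates 9, 10, 11 and 12 read 7.47, 8.85, 6.68 and 8.25. The healthy replicates 14, 15, 16 and 17 read 6.66, 6.30, 8.56 and 7.86, with the highest value in HCM and the lowest in a healthy cat.

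**Figure D1:**
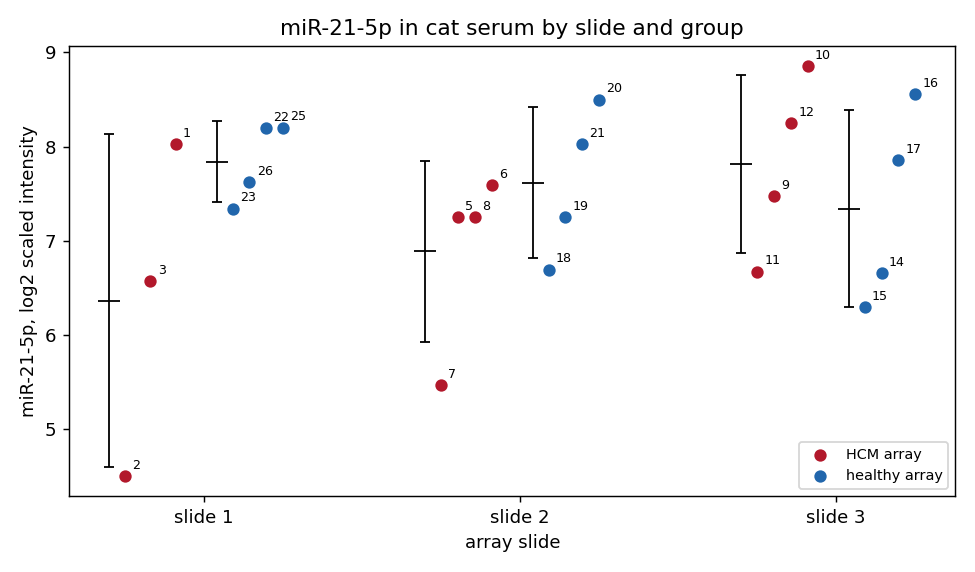
miR-21-5p on each of the 23 arrays, as log2 scaled intensity (vertical axis), by slide (horizontal axis) and group, with the replicate number beside each point and bars for mean ± SD of each group on a slide. HCM replicates 2 and 7, at 4.51 and 5.47, lie below all healthy arrays, and on slide 3 the groups overlap with HCM higher on average.

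Over the 3 slides miR-21-5p ranged from 4.51 to 8.85 with a median of 7.25 in HCM. In healthy serum it ranged from 6.30 to 8.56 with a median of 7.74. The groups overlapped over most of their range, with 2 of 11 HCM arrays below the lowest healthy array and 1 above the highest. The mean was 7.08 ± 1.25 (SD, n = 11) in HCM and 7.60 ± 0.76 (SD, n = 12) in healthy serum. The difference of -0.52 on the log2 scale (SE 0.40, 95% interval -1.34 to 0.30) puts healthy serum 1.43-fold above HCM. It was smaller than the spread between cats. With limma over 543 tested names, of which 0 passed an adjusted p of 0.05 (0%), miR-21-5p had a p of 0.206 and an adjusted p of 0.799. At an unadjusted p under 0.05 limma gave 36 names (6.63%), and miR-21-5p was not among them. A 2-sided permutation test of the difference in means gave a p of 0.241, and 8 of 11 HCM arrays lay below the healthy median. Of all 543 names 66.5% had a lower mean in HCM, and the median difference was -0.10. Without HCM replicate 2 alone the difference was -0.26 (SE 0.34, adjusted p 0.813). Without HCM replicates 2 and 7, a choice made after seeing the values, the difference was -0.05 (SE 0.31, adjusted p 0.963).

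Each probe was also tested alone. In limma over 1075 detected probes, of which 0 passed (0%), the first probe differed by -0.52 and the second by -0.53, both with an adjusted p of 0.816. In the authors' deposited log2 values the first probe read 7.19 ± 1.28 (SD, n = 11) in HCM and 7.54 ± 0.58 (SD, n = 12) in healthy serum. Its difference there was -0.34 and that of the second probe -0.36, both with an adjusted p of 0.976 over 1075 probes in limma, of which 12 passed (1.12%). By name, with 543 names in the same table, 4 passed (0.737%) and miR-21-5p was not among them.

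The group difference was not the same in size on the 3 slides, and it changed direction. HCM minus healthy was -1.47 on slide 1 (exact permutation p 0.114), -0.73 on slide 2 (exact permutation p 0.371) and 0.47 on slide 3 (exact permutation p 0.543). Adjusted over the 3 slides these p were 0.343, 0.543 and 0.543, and the smallest p that a single slide allows before adjustment is 0.0286. The test of whether the difference itself varied between slides, limma's group-by-slide F test over 543 names, gave a p of 0.156 and an adjusted p of 0.998 for miR-21-5p, with 0 names past the threshold (0%). With slide as a block the difference over all arrays was -0.53 (SE 0.41, adjusted p 0.778 in limma). The mean level was 7.21, 7.25 and 7.58 on slides 1, 2 and 3. limma's F test between slides gave an adjusted p of 0.834, and 0 of 543 names passed it (0%).

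miR-21-5p was among the more variable of the names detected on every array. Its SD over the 23 arrays was 1.03, beside a median of 0.57 for the 270 names detected on all arrays, and 5.93% of them had an SD at least as large. The SD in HCM was 1.65 times that in healthy serum, beside a median ratio of 0.85, and 4.81% of the 270 names had a ratio at least as high. The spread itself did not differ past the error of a permutation test, which was chosen after seeing the values. The mean distance from the group median was 0.88 in HCM and 0.62 in healthy serum (permutation p 0.364).

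The level of miR-21-5p moved closely with the labelling spike. The labelling spike is a pair of synthetic RNAs that, in the array maker's protocol, is added to each sample before the dye is attached, and the file headers give its signal as a measure of labelling. On the log2 scale its intensity ran from 6.74 to 10.24 in HCM and from 7.22 to 11.16 in healthy arrays. After subtracting each group's mean, miR-21-5p and the spike had a Pearson r of 0.835 and a Spearman rho of 0.837 over 23 arrays. The spike was first taken as 1 of its RNAs alone, which gave an r of 0.821, and was replaced by the mean of both after that r had been seen. Both coefficients for the mean had a permutation p of 1e-05, the smallest that 100000 resamples can give, and an adjusted p of 5e-05 over 5 array measures. The relation was as close in each group, with r of 0.854 in HCM and 0.852 in healthy serum. Within slides 1, 2 and 3 r was 0.779, 0.728 and 0.909, and without HCM replicate 2 and healthy replicate 16, the arrays farthest from the median spike, it was 0.80. On unscaled intensities r was 0.631 (permutation p 0.00084).

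Few other names followed the spike as closely. In limma with group in the fit, miR-21-5p changed by 0.76 on the log2 scale for each log2 unit of spike (SE 0.11, adjusted p 7.47e-05), which ranked 2 of 543 names by p. Of the 543 names, 42 passed (7.73%), 37 of them with a positive slope (6.81%). The only smaller p was that of miR-23a-3p, with a slope of 0.91 (SE 0.12, adjusted p 5.34e-05). Over the 429 human names detected on at least 12 arrays the median r with the spike was 0.05, with quartiles of -0.20 and 0.25.

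The spike was low on the arrays where miR-21-5p was lowest. HCM replicate 2, with the lowest miR-21-5p at 4.51, had the lowest spike at 6.74, and HCM replicate 7, at 5.47, had a spike of 7.96. Healthy replicate 15, the lowest healthy array at 6.30, had the lowest healthy spike at 7.22. At the other end, healthy replicate 16 read 8.56 with the highest spike of 11.16. HCM replicate 3, with a spike of 6.97, read 6.57, so the order was not exact. HCM replicate 11 read 6.68 at a spike of 8.89, the median of all arrays, and healthy replicate 18 read 6.70 at 8.83.

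The spike also moved with the group difference of miR-21-5p from slide to slide. HCM arrays had a lower spike than healthy arrays on slide 1 by 1.63 and on slide 2 by 0.46, and a higher one on slide 3 by 0.38. The differences of miR-21-5p on these slides were -1.47, -0.73 and 0.47, as given above. Over all arrays the spike was 8.68 ± 1.16 (SD, n = 11) in HCM and 9.17 ± 1.08 (SD, n = 12) in healthy arrays, a difference of -0.49 with a permutation p of 0.307. With the spike as a covariate, a fit added after seeing the data, HCM minus healthy for miR-21-5p was -0.15 (SE 0.24, adjusted p 0.853 in limma), and 0 of 543 names passed (0%). Scaled to the spike in place of the 75th percentile, the difference was 0.39 (SE 0.50, adjusted p 0.565), where the median of all names lay at 0.64. Relative to that median miR-21-5p was at -0.25. With the first RNA alone, the spike as first defined, the difference was -0.04 (SE 0.25, adjusted p 0.979 in limma) as a covariate and 0.65 (SE 0.60, adjusted p 0.377) as the scale, where the median of all names was 0.89.

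The gap between the probes of miR-21-5p moved with the spike as well. After subtracting group means, the log2 difference of the probes and the spike had a Pearson r of 0.746 (permutation p 5e-05) and a Spearman rho of 0.792 (permutation p 1e-05) over 23 arrays, and r was 0.687 without the same pair of arrays. This relation was chosen after its values were seen. The 3 widest gaps, given above, fell on arrays with spikes of 11.16, 10.24 and 10.13.

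Over all arrays the other measures were less close to miR-21-5p, and some differed between groups. The hybridization spike, added after labelling, had an r of 0.348 (permutation p 0.103, adjusted p 0.258) and a rho of 0.593 (permutation p 0.00333, adjusted p 0.00833). It was 0.06 within HCM and 0.801 within healthy serum. Without HCM replicate 9 and healthy replicate 14, the farthest from its median, r was 0.445, and within slides 1, 2 and 3 it was 0.272, 0.444 and 0.682. The haemolysis measure, the log2 difference between miR-451a of red cells and miR-23a-3p, had an r of 0.167 (permutation p 0.444) and a rho of 0.196 (permutation p 0.368), both with an adjusted p of 0.46 or more. Its within-slide r was -0.436, 0.307 and 0.782, and without healthy replicates 16 and 22, which stood apart at 3.22 and 2.31, it was -0.04. miR-23a-3p is part of that measure and is itself among the names closest to miR-21-5p. The number of names detected had an r of 0.111 (permutation p 0.615) and a rho of 0.03 (permutation p 0.897). Within HCM that r was 0.817 and within healthy serum -0.676, opposite in sign, and the difference was not tested. Within slides it was 0.339, -0.353 and 0.05, and without healthy replicates 22 and 25 it was 0.253.

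The overall brightness of the array, like the number of names detected, related to scaled miR-21-5p in opposite directions in the groups. The log2 75th percentile had a pooled r of -0.09 (permutation p 0.67) and a rho of -0.21 (permutation p 0.336) once group means were removed. Within slides 1, 2 and 3 that r was 0.163, -0.413 and -0.320, and it was 0.06 without healthy replicates 20 and 25. Within HCM r was 0.738 and within healthy serum -0.794. In limma the slope was 1.87 (SE 0.43) in HCM and -0.66 (SE 0.22) in healthy serum per log2 unit of brightness, and the slopes differed by 2.53 (adjusted p 0.0182). miR-21-5p was the only one of 543 names past that test (0.184%), which was chosen after the within-group values were seen. The same test was run on 1 other measure, the labelling spike, where the slopes were 0.92 (SE 0.15) in HCM and 0.60 (SE 0.15) in healthy serum and differed by 0.32 (adjusted p 0.462), with 0 of 543 names past the threshold (0%). For brightness, scaling divides by the same percentile, which lowers both slopes by 1 and leaves their difference as it is. The healthy slope of -0.66 is thus negative only after scaling, and on unscaled intensities both slopes are positive. Scaled to the labelling spike, 325 of 543 names passed that test and miR-21-5p did not (0.44, adjusted p 0.590). That scaling takes the spike's own slopes on brightness from every name above the floor. The fall from 2.53 to 0.44 is thus the spike's own slope difference between groups, and the 325 calls are no separate results. In the values as reported, the miR-21-5p slope difference without HCM replicate 2 was 1.94 (adjusted p 0.941). With the labelling spike in the fit it was 1.38 (adjusted p 0.994). It also missed the threshold without HCM replicate 10 (2.32, adjusted p 0.0745), HCM replicate 12 (2.65, adjusted p 0.0641) or healthy replicate 15 (2.47, adjusted p 0.0632).

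**Figure D2:**
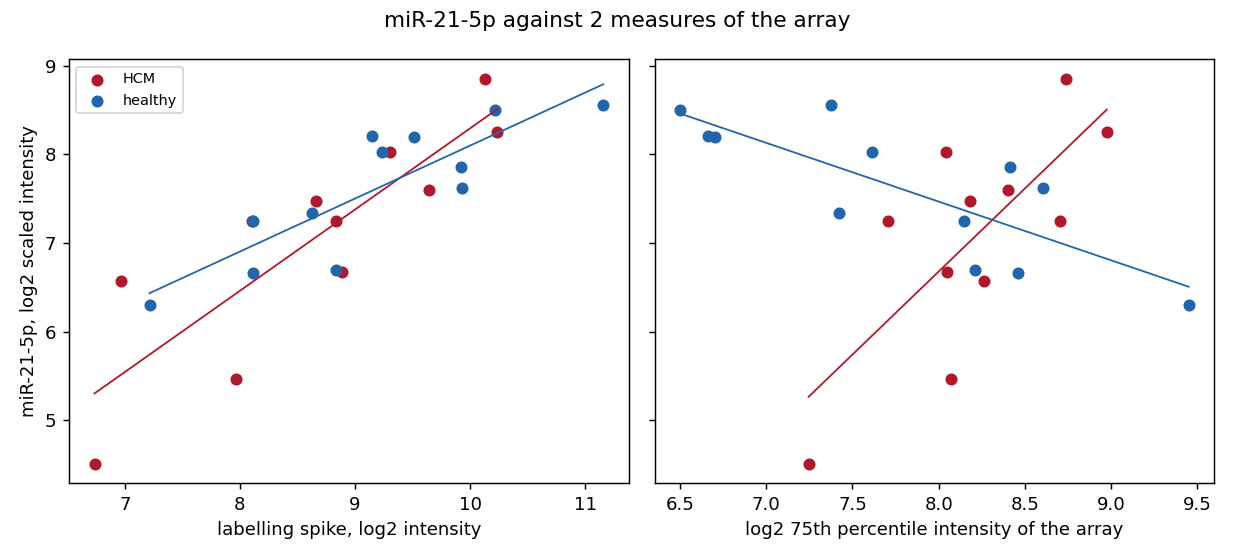
miR-21-5p as log2 scaled intensity (vertical axis) against the log2 intensity of the labelling spike (left) and the log2 75th percentile intensity of the array (right), 1 point per array with a least-squares line per group. Both groups run along 1 rising band on the left (r 0.854 in HCM and 0.852 in healthy serum), while on the right the lines cross, with r 0.738 in HCM and -0.794 in healthy serum. The scaling divides by the percentile of the right axis, and the healthy slope there is negative only after it.

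Likeness to miR-21-5p was measured as Pearson's r over the 23 arrays after subtracting group means, for the 428 other human names detected on at least 12 arrays. These arrays share their scaling and spike, and the values are a description. The median r was 0.04, with quartiles of -0.20 and 0.27, and 8 names reached 0.80. The closest was miR-142-5p, a miRNA of blood cells, at 0.866. Next came miR-140-3p, known from cartilage, at 0.852 and miR-23a-3p at 0.852. miR-29a-3p, which targets collagen messengers, followed at 0.835, then miR-500a-3p at 0.825 and miR-222-3p, known from vessel walls, at 0.811. miR-361-5p stood at 0.806, miR-24-3p, from the same primary transcript as miR-23a-3p, at 0.802, the blood cell miRNA miR-342-3p at 0.782 and miR-130b-3p at 0.768. The next name, miR-29c-3p, was at 0.767, so the tenth place was not set apart from the eleventh. Detection was complete, on 23 of 23 arrays, for 3 of these 10, and it was lowest for miR-142-5p and miR-342-3p, at 18 arrays each. miR-142-5p lay at the floor of 2.50 on 6 arrays, HCM replicates 2, 7 and 11 and healthy replicates 14, 15 and 18, where miR-21-5p read 6.70 or less. miR-342-3p lay at the floor on the same 6 arrays, and miR-24-3p on 4 of them.

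These 10 names were picked by r pooled over both groups, so their r within each group describes them and is not separate support. Within HCM their r lay between 0.768 and 0.935 and within healthy serum between 0.670 and 0.905. Without HCM replicates 2 and 7 they lay between 0.600 for miR-130b-3p and 0.916 for miR-142-5p. In the values of single arrays, miR-23a-3p read 4.03 on HCM replicate 2 and 5.62 on HCM replicate 7, beside 8.83 on HCM replicate 10 and 9.13 on healthy replicate 16. Like miR-21-5p, it was thus lowest on HCM replicate 2 and high on HCM replicate 10 and healthy replicate 16. It was picked by r over these same arrays, so this describes the pick and is not separate support.

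Of the 10 names nearest to miR-21-5p, 7 were also among the 10 nearest to the labelling spike, and miR-130b-3p ranked 30 there. Their r with the spike lay between 0.534 for miR-130b-3p and 0.847 for miR-23a-3p. In limma's test of a slope on the spike 9 of the 10 passed, beside 7.73% of all names. The 10 were picked by r with miR-21-5p, which itself follows the spike, so that share is not a separate result. Across the 428 names, which are not independent of each other, r with miR-21-5p and r with the spike correlated at 0.909. After the spike was removed along with the group means, the 10 names had r with miR-21-5p between 0.394 for miR-24-3p and 0.698 for miR-140-3p, where the median of all names was 0.04. Of the 10 names with the highest r in that setting, 5 were among the first 10.

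**Figure D3:**
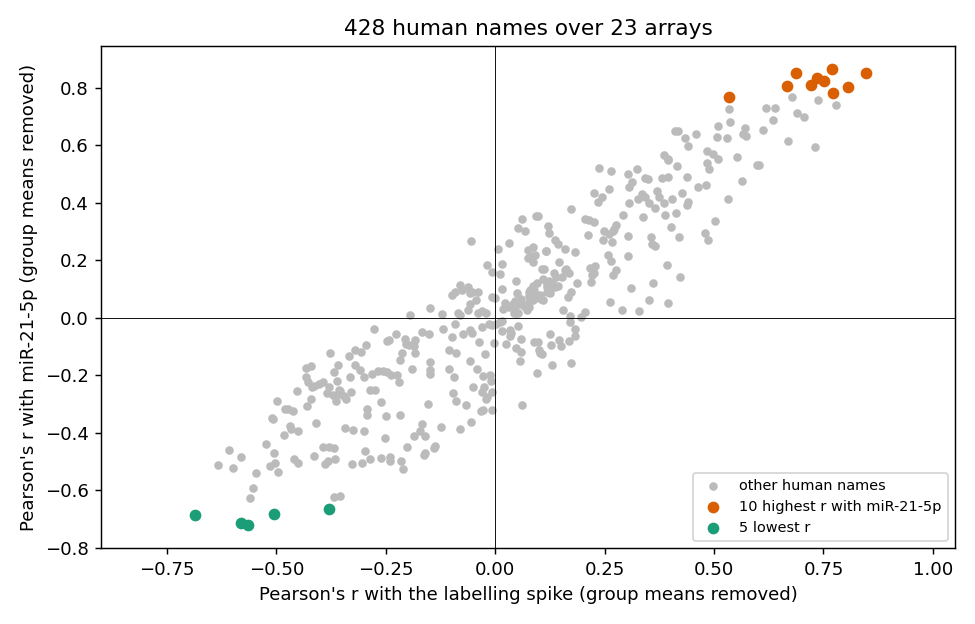
Pearson's r with miR-21-5p (vertical axis) against Pearson's r with the labelling spike (horizontal axis) for 428 human names over 23 arrays, group means removed; 1 point is 1 name. The points lie along the diagonal (correlation 0.909), with the 10 names most like miR-21-5p at the upper right and the 5 least like it at the lower left.

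At the other end, 5 names ran most strongly against miR-21-5p. miR-4497 had an r of -0.72, miR-4270 -0.71, miR-4530 -0.68, miR-1224-5p -0.68 and miR-1207-5p -0.66. All 5 were detected on 23 arrays, and their r with the spike lay between -0.69 and -0.38. Of them, miR-4530 passed the slope test, with a slope of -0.26 per log2 unit of spike (adjusted p 0.0148).

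None of the 10 names nearest to miR-21-5p passed the test between groups in limma, their smallest unadjusted p being 0.136 for miR-222-3p. HCM was lower for 9 of the 10, beside 66.5% of all names. The 10 were picked for moving with miR-21-5p, so their signs are not separate results. For miR-23a-3p, miR-130b-3p and miR-500a-3p the differences were small, at -0.02, -0.04 and -0.06, beside a median of -0.10 over all tested names. miR-140-3p read 6.15 ± 1.22 (SD, n = 11) in HCM and 6.80 ± 0.95 (SD, n = 12) in healthy serum, a difference of -0.65 (SE 0.42, adjusted p 0.799). miR-142-5p differed by -0.29 (SE 0.49, adjusted p 0.869). miR-24-3p, the exception in sign, differed by 0.30 (SE 0.75, adjusted p 0.936). Like miR-21-5p, miR-142-5p went from -1.51 on slide 1 to 0.76 on slide 3, and miR-29a-3p from -1.81 to 0.77. miR-140-3p stayed negative on the 3 slides, at -1.33, -0.51 and -0.21. The names were picked by r with only group means removed, so differences between slides entered that pick. A slide pattern shared with miR-21-5p is therefore not separate support.

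miR-21-5p is usually discussed with other miRNAs of heart fibrosis, and these were read beside it. Of 16 such names 8 were tested and 0 passed, beside 0% of all names; 6 were lower and 2 higher in HCM, and the median difference was -0.40, beside -0.10 over all tested names. The miR-29 family targets collagens and is described as lowering fibrosis, the reverse of the role given to miR-21-5p. Its members miR-29a-3p, miR-29b-3p and miR-29c-3p differed by -0.56, -0.90 and -0.42, the same direction as miR-21-5p. Their SE were 0.48, 0.64 and 0.39 and their p in limma 0.248, 0.174 and 0.290. miR-29b-3p was detected on 14 arrays. Each of them also passed limma's slope test on the labelling spike, with adjusted p of 0.00186, 0.000411 and 0.00497. miR-30a-5p, of a family that targets connective tissue growth factor, differed by 0.39 (SE 0.28, p 0.180). The 7 fibrosis names detected on at least 12 arrays had a median r of 0.740 with miR-21-5p, from 0.302 for miR-30d-5p to 0.835 for miR-29a-3p. Their r with the spike ranged from 0.07 for miR-30d-5p to 0.807 for miR-24-3p.

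Of the 18 hypertrophy names, 17 were on the array and 7 were tested, 4 lower and 3 higher in HCM, with 0 past the threshold and a median difference of -0.02. The smallest p in limma there was 0.298, for miR-155-5p at -0.15. That name was detected on 6 arrays, and its means of 2.51 in HCM and 2.66 in healthy serum lay close to the floor of 2.50. miR-133b, a muscle miRNA detected on 10 arrays, differed by 0.54 (SE 0.65, p 0.416), and miR-22-3p, abundant in heart muscle, by -0.29 (SE 0.32, p 0.381).

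Because blood cells carry miR-21-5p, cell-linked names were read in the same way. The leukocyte names miR-142-5p, miR-342-3p, miR-181b-5p and miR-181a-5p had r of 0.866, 0.782, 0.520 and 0.267 with miR-21-5p. All 5 tested leukocyte names were lower in HCM, by 0.15 to 0.37, and 0 passed, beside 66.5% of all names lower and a median of -0.10. Among them miR-155-5p was detected on 6 arrays. Among platelet names miR-223-3p, also a miRNA of myeloid cells, had an r of 0.475 and differed by -0.56 (SE 0.37, p 0.142 in limma). The other tested platelet names, miR-24-3p, miR-197-3p and miR-151a-3p, had r of 0.802, 0.414 and 0.319. They differed by 0.30, 0.15 and -0.27. Of the 4 tested platelet names 2 were lower, 2 higher and 0 passed. The vessel wall names miR-222-3p, miR-221-3p and miR-145-5p had r of 0.811, 0.756 and 0.560, with differences of -0.44, -0.27 and 0.27 and 0 past the threshold. The 5 red cell names had a median r of 0.551, from 0.153 for miR-486-5p to 0.613 for miR-451a. 1 of them was lower and 4 were higher in HCM, with 0 past the threshold. The single tested liver name, miR-122-5p, differed by 0.03 (p 0.959). With the labelling spike removed as well, these r moved unequally. miR-223-3p went from 0.475 to 0.01, miR-451a from 0.613 to 0.133, miR-145-5p from 0.560 to 0.215 and miR-342-3p from 0.782 to 0.394. miR-142-5p kept 0.636, while miR-181b-5p went from 0.520 to 0.605 and miR-181a-5p from 0.267 to 0.569. The vessel wall names miR-222-3p and miR-221-3p went from 0.811 to 0.545 and from 0.756 to 0.379. The platelet name miR-24-3p went from 0.802 to 0.394. Not every name of each list is given here, so these values do not set 1 cell type apart from the others.

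The direction of the miR-21-5p difference held under most ways of processing, as the plot of the difference by setting shows. Settings that changed only the floor or the filter on names could not move it. The difference was -0.10 without scaling between arrays, where the median of all names was 0.21, and -0.25 after normexp background correction, where that median was -0.26. Relative to the median of all names, the difference was thus -0.31 without scaling and 0.01 after normexp.

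**Figure D4:**
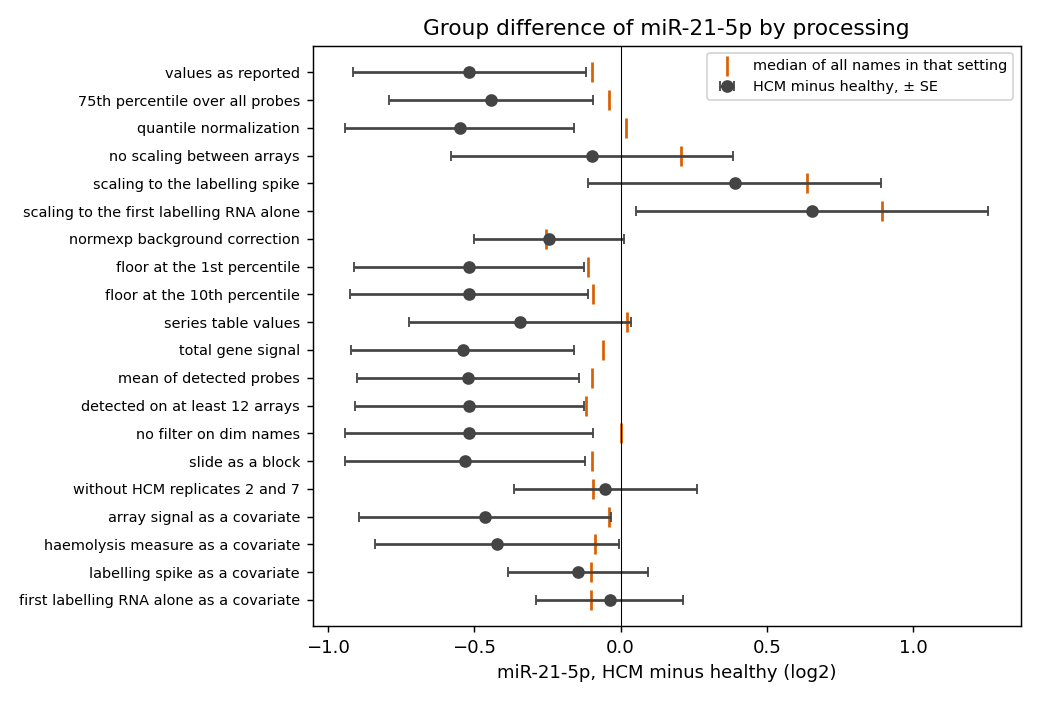
HCM minus healthy for miR-21-5p on the log2 scale (horizontal axis, points with ± SE) under each setting (vertical axis), with orange ticks for the median difference of all names tested in that setting. The difference is negative in every setting drawn except scaling to the labelling spike (0.39, median of all names 0.64) and to its first RNA alone (0.65, median 0.89).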

How the data were processed

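Serum RNA of 23 cats was measured on 1-colour Agilent human miRNA arrays. The scanner files hold spot intensity made by Agilent Feature Extraction 10.7.3.1, per the file headers, with background subtracted and arrays not yet normalized to each other. They further hold other values per spot, namely flags of 0 or 1, per the file headers. The authors' deposited series table holds log2 values. Set against the scanner signals above an intensity of 8, they had r of 0.987 to 0.9998 and slopes of 0.950 to 0.980, so they are uncentred with the same direction. Their column medians were 2.98 to 3.31, and their normalization is not given in the sources used here.

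Control and outlier spots (1.81% to 3.95% of miRNA spots) were left out and spots averaged per probe. A probe was detected when 50% of its spots were well above background. Arrays were scaled to the 75th percentile over probes detected on all 23 arrays, floored at 5.65 (the 5th percentile of signals well above background) and log2 transformed. The brightest probe stood for a name, and names detected on 6 arrays or more were tested. limma 3.58.1 in R 4.3.3 (lmFit, eBayes, Benjamini-Hochberg) was checked on simulated data. Permutation tests were 2-sided with 100000 resamples, or exact within slides. Python 3.11.15 with numpy 2.4.6, pandas 2.3.3, scipy 1.17.1 and matplotlib 3.10.9 did the rest. normexp used the median spot signal, since a mean signal was not used here.

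The labelling spike is the mean log2 intensity of 2 labelling RNAs (dmr_285 and dmr_31a). dmr_285 alone was used first. It was replaced after its correlation with miR-21-5p was seen, because the mean follows the header's labelling metric more closely (r 0.9998 against 0.986), and both versions are given.

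miR-21-5p, the lists and the rules were chosen with earlier results of these data known. Named were both probes, miR-21-3p and miR-590-5p, the 10 names with the highest and the 5 with the lowest r, and up to 4 names of each list with the smallest p, with further list members named after their values were seen. The number of arrays limits the precision.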

Additional observations from a re-analysis of the deposited data

Results flagged for a closer look

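HCM replicate 7 stood apart on slide 2, where miR-21-5p read 5.47 and the 3 other HCM arrays read 7.25 to 7.59. Its gap to the nearest array was 0.839 of the range of the 4 arrays, above the limit of 0.829 for 4 values. Of 5 groups of 4 arrays examined, 1 was marked. Chance marks about 1 in 20 for each group, so a mark somewhere among 5 groups is more likely than that. The labelling spike on that array was 7.96, the lowest of slide 2.

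The slope of miR-21-5p on array brightness differed between HCM and healthy serum by 2.53 on the log2 scale (limma, adjusted p 0.0182), a test chosen after the within-group values were seen. The call was lost in 4 of 23 fits that left out 1 array, those without HCM replicates 2, 10 or 12 or healthy replicate 15, with slope differences of 1.94, 2.32, 2.65 and 2.47.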

How the results depend on the processing

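The miR-21-5p difference of -0.52 kept its sign and stayed short of the threshold in 18 of 20 other settings, with adjusted p between 0.377 and 0.979 over all 20. Settings that changed only the floor or the filter on names could not move the difference from -0.52, since miR-21-5p was above the floor on every array. Scaling to the labelling spike turned it to 0.39 over all arrays, 0.66 on slide 1 and 0.34 on slide 2, and scaling to the first labelling RNA alone, the spike as first defined, turned it to 0.65. Leaving out each array in turn gave -0.69 to -0.26. The lower end is without HCM replicate 10 and the upper without HCM replicate 2. Probe by probe that range was -0.69 to -0.26 and -0.68 to -0.28. The count of names past the threshold was 0 in the values as reported, 1 with the floor at the 1st percentile, 4 in the series table, 1 on the total gene signal, 1 with the first labelling RNA alone as a covariate and 1 by the permutation rank test, and miR-21-5p was not among them. With the rank test, its adjusted p was 0.908. Both slide tests stayed short of the threshold in 14 of 14 settings and in every fit without 1 array. The r with the labelling spike was 0.808 to 0.854 when each array was left out, and 0.631 to 0.853 under 7 other settings, with 0.821 for the first RNA alone, whose limma slope was 0.64 (SE 0.10, adjusted p 0.000167). Of the 10 names most like miR-21-5p, 6 were shared with Spearman's rho, 6 without scaling, 5 with scaling to the spike and 5 with the spike removed. The slope difference on brightness fell short of the threshold after scaling to the spike (0.44) or to its first RNA alone (0.19). In those settings 325 and 321 of 543 names passed against 1 as reported. Such scaling takes the spike's own slopes from every name above the floor, so these calls are no separate results. The miR-21-5p slope difference also fell short after normexp (1.54) and with no filter on dim names (2.53, adjusted p 0.168). The same held without HCM replicates 2 and 7 (1.62) and with the spike as a covariate (1.38). Without single arrays the slope difference was 1.94 to 2.83. The causes were not tested. No paired analysis was possible because the groups share no replicate numbers. The fits with covariates, those without HCM replicates 2 and 7, the spread test, and the relations with the hybridization spike and the probe gap were chosen after seeing the data.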
